A study of Bos taurus with 8 samples.

Results

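The 10 genes described here encode factors that shorten the poly(A) tails of mRNA: the adaptor BTG4, the CCR4-NOT subunits CNOT6L, CNOT6, CNOT7, CNOT8 and CNOT1, the PAN2-PAN3 deadenylase, the nuclease PARN and the RNA-binding recruiter ZFP36L2. They were chosen by name, with earlier results of these data known, and all 10 were found among the 16606 genes of the deposited table. None of the 10 is an enzyme that adds uridines to RNA tails, so the uridylation genes are given separately as a list. Expression was measured by RNA sequencing in 8 libraries from bovine embryos made by in vitro fertilisation of oocytes from slaughterhouse ovaries, each library from a pool of 5 embryos. The 4 groups of 2 libraries were 4-cell control, 4-cell edited, 8-cell control and 8-cell edited embryos. The edited embryos were injected as zygotes with PEmax, a prime editor that joins a nicking Cas9 to a reverse transcriptase, and a guide RNA for the RPL12 edit that the labels write as A148G. RPL12 encodes a protein of the large ribosomal subunit. The labels call the samples base edited where the protocol describes prime editing. They give the source of the 4-cell samples as oocytes where the titles say 4-cell embryos, and the titles were followed. Whether control embryos received an injection is not stated, nor what share of alleles carried the edit, or whether the 2 pools of a group came from separate fertilisations, so p-values measure only the spread between these libraries.

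Fully grown oocytes store mRNA that is not transcribed anew during the first cleavages, and the poly(A) tail is the main handle on its stability. CCR4-NOT removes the tail with a pair of nuclease modules, CNOT6 or CNOT6L and CNOT7 or CNOT8, on the scaffold CNOT1. BTG4, an oocyte protein of the BTG/TOB family, binds CNOT7 and CNOT8 and brings the complex to maternal mRNA. In mice its loss leaves maternal transcripts in place and stops development at the first cleavages. Short tails can then be marked with uridines by TUT4 and TUT7 before decapping and digestion. Since mRNA was captured by its tail and amplified as full-length cDNA, a transcript with a long tail is also captured more readily, and the level of a transcript and the length of its tail cannot be told apart in these values.

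Levels are counts per 1000000 reads (CPM) as the authors deposited them. They are shares of a library's reads, so a higher or lower level here is not an amount per embryo. The columns sum to between 992528 and 1007024, so the divisor was not exactly the listed reads of each library, and how it was set is not given in the sources used here. Between 33527531 and 35122409 reads per library were assigned to genes, and the weakest value of the 10 genes was 53 reads of ZFP36L2. The reads come from amplified cDNA, so their number does not give the number of molecules sampled. Comparisons used limma on log2(CPM + 1) over 12129 genes averaging 1 CPM or more, which all 10 genes reached, and a gene was called at an adjusted p-value under 0.05. RPL12 itself stood at 27.5 and 33.6 CPM in 4-cell edited against 159 and 174 CPM in 4-cell control libraries, and at 14.1 and 11.9 against 96.3 and 97.6 CPM at the 8-cell stage, so it was lower in every edited library. The oocyte and early embryo markers looked for were present in every library (18 of 19 in the table, none without reads). Transcripts typical of the cumulus and granulosa cells that surround the oocyte differed between edited and control libraries. Their summed level over 28 genes was 5142 and 4767 CPM in 4-cell control, 999 and 1197 CPM in 4-cell edited, 1974 and 2840 CPM in 8-cell control and 860 and 874 CPM in 8-cell edited libraries. Of the 26 of them that were tested, 19 were called lower and 2 higher in edited embryos at the 4-cell stage, and 12 lower at the 8-cell stage. Of the 28, between 1 and 3 had no read in a library, and these were LHCGR, FOXL2, TNFAIP6 and KRT18. Of 9 markers of other cells, such as blood, stroma and vessel, 5 were in the table. Their sum was 76.1 and 83.7 CPM in 4-cell control and 15.3 and 19.7 CPM in 4-cell edited libraries. In 8-cell embryos it was 25.9 and 51.7 CPM in control and 2.21 and 1.83 CPM in edited libraries. All 3 that were tested, COL1A1, COL1A2 and COL3A1, were called lower in edited embryos at the 4-cell stage, and 2 at the 8-cell stage. The summed oocyte markers were higher in edited libraries, with 8893 and 12431 CPM in 4-cell control libraries, 15659.5 to 18624 CPM in 8-cell control and 21405 to 25971 CPM in edited libraries. Their members were not uniform: of 18 tested, 5 were called higher and 1 lower in edited embryos at the 4-cell stage, and 3 higher at the 8-cell stage. OOSP2, an oocyte-secreted protein gene named after its values were seen, went from 674 and 1189 CPM in 4-cell control to 6669 and 6196 CPM in 4-cell edited libraries. In such bulk samples fewer cells of a type and less RNA per cell cannot be told apart, and the part of these markers in the results below was not tested beyond the alternatives named there.

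At the 4-cell stage 6 of the 10 genes were higher in edited embryos (CNOT6L, CNOT6, PAN3, BTG4, CNOT7 and CNOT1), CNOT8 was lower, and PARN, PAN2 and ZFP36L2 were not called. Over all 12129 genes 44.7% were called in this comparison, 18.9% higher and 25.8% lower. The share called higher among the 10 was above this background. Since the 10 were chosen with earlier results of these data known, this is a description and not a test of the group. The median log2 fold change of the 10 was 0.84, beside -0.02 over all genes tested. Edited and control libraries did not overlap for 8 of the 10, with 7 higher and 1 lower, beside 33.5% higher and 37.5% lower over all genes. At the 8-cell stage none of the 10 was called in either direction, where 15.6% of all genes were called, 1.08% higher and 14.5% lower. In control embryos BTG4, CNOT6L and CNOT6 were higher in 8-cell than in 4-cell libraries. The lowest levels of these 3 genes were thus those of the 4-cell control libraries.

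**Figure D1:**
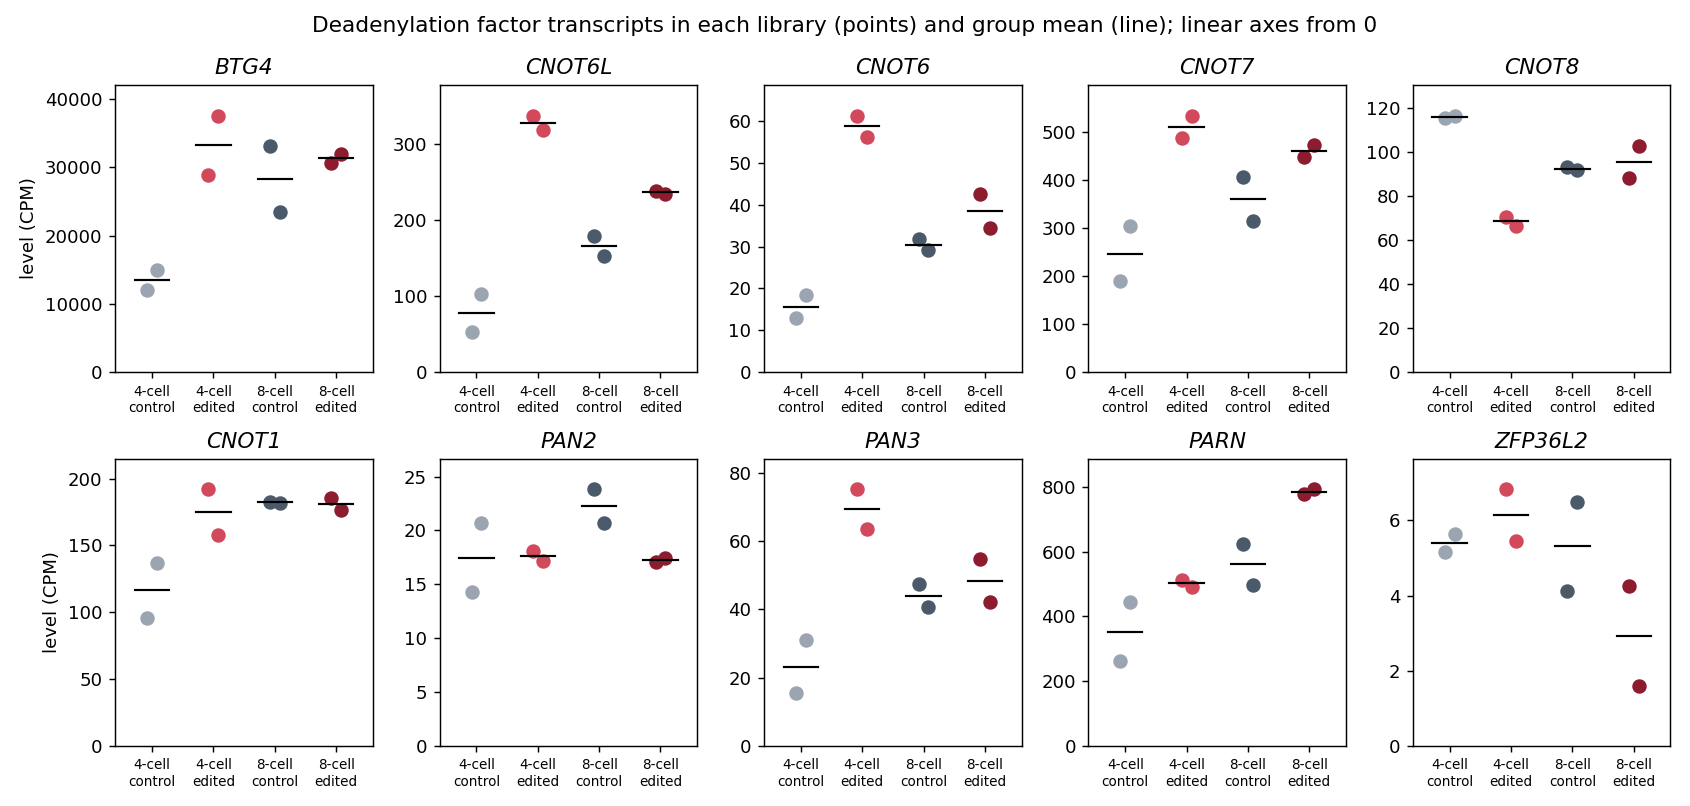
Level of each of the 10 transcripts in CPM (vertical axes, linear and starting at 0) in the 2 libraries of each group (points), with the group mean as a line. For BTG4, CNOT6L, CNOT6, CNOT7, CNOT1, PAN3 and PARN both 4-cell control libraries lie below every other library, whereas CNOT8 is highest there and lowest in 4-cell edited libraries.

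BTG4, the adaptor, took the most reads of the 10. Its level was 12015 and 14925 CPM in the 4-cell control libraries, 28841 and 37563 CPM in 4-cell edited, 33193 and 23479 CPM in 8-cell control, and 30586 and 32009 CPM in 8-cell edited libraries. This is between 1.19% and 3.77% of all reads, and BTG4 ranked first among all genes by CPM, without regard to length, in every library except the first 4-cell control library, where it ranked 3. Only the 4-cell control libraries stood apart, while the other 6 overlapped. The 4-cell edited level was 2.46 times the control level on the mean, or 1.297 on the log2 scale (SE 0.271, limma adjusted p-value 0.00115). Within controls the 8-cell level exceeded the 4-cell level by 1.06 on the log2 scale (SE 0.271, limma adjusted p-value 0.0301). The 8-cell edited and control libraries overlapped, with a log2 difference of 0.17 (SE 0.271).

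CNOT6L and CNOT6 are alternative nucleases of the exonuclease-endonuclease-phosphatase type in CCR4-NOT, and CNOT6L is the form known for its role in maternal mRNA clearance in mouse oocytes. CNOT6L was at 52.5 and 102 CPM in 4-cell control, 337 and 318 CPM in 4-cell edited, 179 and 153 CPM in 8-cell control, and 239 and 235 CPM in 8-cell edited libraries. The 4 groups did not overlap, in the order 4-cell control, 8-cell control, 8-cell edited and 4-cell edited. CNOT6L had the largest log2 fold change of the 10 at the 4-cell stage, 2.14 (SE 0.267, limma adjusted p-value 1.42e-05), a 4.24-fold ratio of means. CNOT6 was at 12.9 and 18.3 CPM in 4-cell control, 61.3 and 56.3 CPM in 4-cell edited, 31.8 and 29.1 CPM in 8-cell control, and 42.6 and 34.4 CPM in 8-cell edited libraries. It showed the same order of groups, with a 4-cell difference of 1.87 on that scale (SE 0.277, limma adjusted p-value 6.88e-05). The ratio of CNOT6L to CNOT6 within a library lay between 4.08, in the first 4-cell control library, and 6.81, in the second 8-cell edited library. In the other 6 libraries it lay between 5.24 and 5.65. These ratios are not corrected for transcript length and serve only to compare libraries.

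CNOT7 and CNOT8, the alternative nucleases of the DEDD type that BTG proteins bind, moved in opposite directions at the 4-cell stage. CNOT7 was at 189 and 304 CPM in 4-cell control and 488 and 534 CPM in 4-cell edited libraries (1.09 on the log2 scale, SE 0.240, limma adjusted p-value 0.00172). CNOT8 was at 115.7 and 117 CPM in 4-cell control and 70.5 and 66.7 CPM in 4-cell edited libraries (-0.75 on the log2 scale, SE 0.220, limma adjusted p-value 0.0111). Neither pair of groups overlapped. In 8-cell embryos CNOT7 was at 407 and 314 CPM in control and 448 and 473 CPM in edited libraries, and CNOT8 at 93.3 and 91.8 against 88.3 and 103 CPM. The edited libraries lay above the controls for CNOT7 and overlapped them for CNOT8, and neither difference was called, at 0.36 (SE 0.240) and 0.04 (SE 0.220) on the log2 scale. The ratio of CNOT7 to CNOT8 at the 4-cell stage was 1.63 and 2.60 in the controls and 6.92 and 8.01 in the edited libraries. In the 8-cell libraries it was 4.37 and 3.42 for controls against 5.07 and 4.59 for edited embryos. The ratio was thus highest in 4-cell edited and lowest in 4-cell control libraries, with no overlap among the 4 groups.

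**Figure D2:**
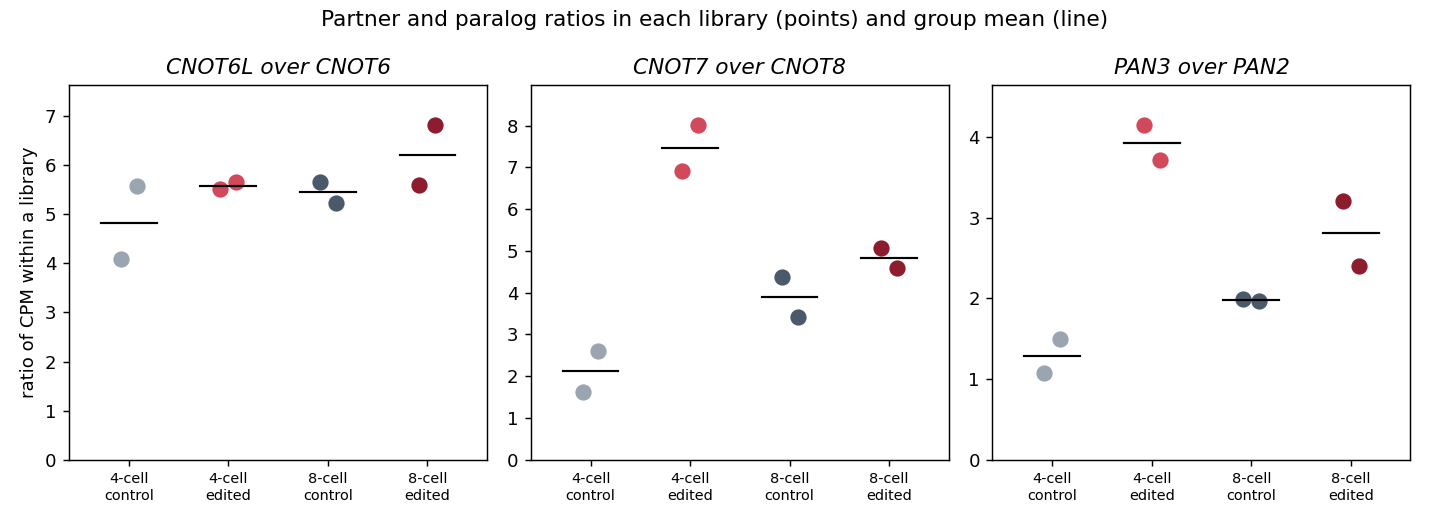
Ratio of the CPM of 2 related genes within each library (vertical axes from 0, not corrected for length), with points for libraries and a line for the group mean. CNOT6L over CNOT6 lies between 5.24 and 5.65 in 6 of the 8 libraries, whereas CNOT7 over CNOT8 and PAN3 over PAN2 are lowest in 4-cell control and highest in 4-cell edited libraries.

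CNOT1, the scaffold on which the other subunits assemble, was at 96.0 and 137 CPM in 4-cell control and 192 and 158 CPM in 4-cell edited libraries. Its difference of 0.60 on the log2 scale (SE 0.229) passed the threshold narrowly, with a limma adjusted p-value of 0.0442. It was not called under 12 of 19 alternative settings, including each omission of a library except that of the second 4-cell control library, and the adjusted p-value under the alternatives ranged from 0.00806 to 0.936. In all 4 libraries of the 8-cell stage CNOT1 lay between 176 and 185 CPM, with edited and control overlapping.

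PAN2 and PAN3 form the second deadenylase, in which PAN3 binds the poly(A)-binding protein and PAN2 is the nuclease. PAN3 was at 15.3 and 30.9 CPM in 4-cell control, 75.1 and 63.5 CPM in 4-cell edited, 47.4 and 40.6 CPM in 8-cell control, and 54.6 and 42.0 CPM in 8-cell edited libraries. Its 4-cell log2 fold change was 1.62 (SE 0.310, limma adjusted p-value 0.000579). PAN2 was at 14.3 and 20.6 CPM in 4-cell control and 18.1 and 17.1 CPM in 4-cell edited libraries, which overlap, with a log2 difference of 0.03 (SE 0.303). In 8-cell embryos PAN2 was at 23.8 and 20.7 CPM in control and 17.0 and 17.5 CPM in edited libraries, a log2 difference of -0.35 (SE 0.303) that was not called. The ratio of PAN3 to PAN2 was 1.07 and 1.496 in 4-cell control against 4.15 and 3.71 in 4-cell edited libraries, and 1.99 and 1.96 against 3.21 and 2.41 at the 8-cell stage, so edited libraries were higher at both stages.

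PARN, a nuclease that also binds the cap and is known for tail shortening during frog oocyte maturation, differed from the others in its pattern over the groups. PARN was at 262 and 444 CPM in 4-cell control and 513 and 492 CPM in 4-cell edited libraries. At the 8-cell stage it was at 625 and 497 CPM in control and 779 and 793 CPM in edited libraries. The edited libraries lay above the controls at each stage, with log2 differences of 0.56 (SE 0.243) and 0.50 (SE 0.243) that were not called (limma adjusted p-values 0.0744 and 0.205). The 8-cell libraries lay above the 4-cell libraries of the same condition by 0.71 in control and 0.65 in edited embryos on the log2 scale (SE 0.243), again without a call (limma adjusted p-values 0.0734 and 0.135). Without the second 4-cell control library, the higher of its group, PARN was called at the 4-cell stage with a log2 difference of 0.94, and without the first it was 0.18 and not called. That difference was 0.07 with cumulus and granulosa markers as a covariate and 0.12 with scaling to oocyte markers. In edited embryos the stage difference of PARN was called in 3 of 19 alternatives, with adjusted p-values from 0.0216 to 0.784.

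ZFP36L2, which binds AU-rich elements and recruits CCR4-NOT, had the fewest reads of the 10. It was at 5.16 and 5.63 CPM in 4-cell control, 6.83 and 5.44 CPM in 4-cell edited, 4.12 and 6.50 CPM in 8-cell control, and 4.24 and 1.59 CPM in 8-cell edited libraries. Edited and control libraries overlapped at both stages. The 8-cell edited libraries lay below the 4-cell edited ones, with a log2 difference of -0.95 (SE 0.414) and a limma adjusted p-value of 0.198.

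The calls of the 4-cell comparison were not equally stable. CNOT6L, CNOT6, PAN3 and CNOT8 were called in the same direction under 18 of 19 alternatives. BTG4 was called under 16 and CNOT7 under 17. The alternative that ended every call was a covariate made from the transcripts of cumulus and granulosa cells, under which 0 of the 10 genes were called by limma and 1 had an unadjusted p-value under 0.05. Under it the log2 fold changes were 1.86 for CNOT6L, 1.86 for CNOT6, 1.49 for PAN3, 0.77 for BTG4, 0.63 for CNOT7 and -1.01 for CNOT8. The marker level itself had 93.3% of its variance between the 4 groups, so this covariate and the groups can hardly be told apart. When all values were instead scaled to the oocyte and early embryo markers, CNOT6L (log2 fold change 1.71), CNOT6 (1.43), PAN3 (1.18) and CNOT8 (-1.19) remained called, and BTG4 (0.86, limma adjusted p-value 0.0587), CNOT7 (0.65, 0.0637) and CNOT1 (0.16, 0.614) did not. This scaling moved the median of all genes from -0.02 to -0.46 and the calls over all genes from 2288 higher and 3131 lower to 875 higher and 4342 lower.

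**Figure D3:**
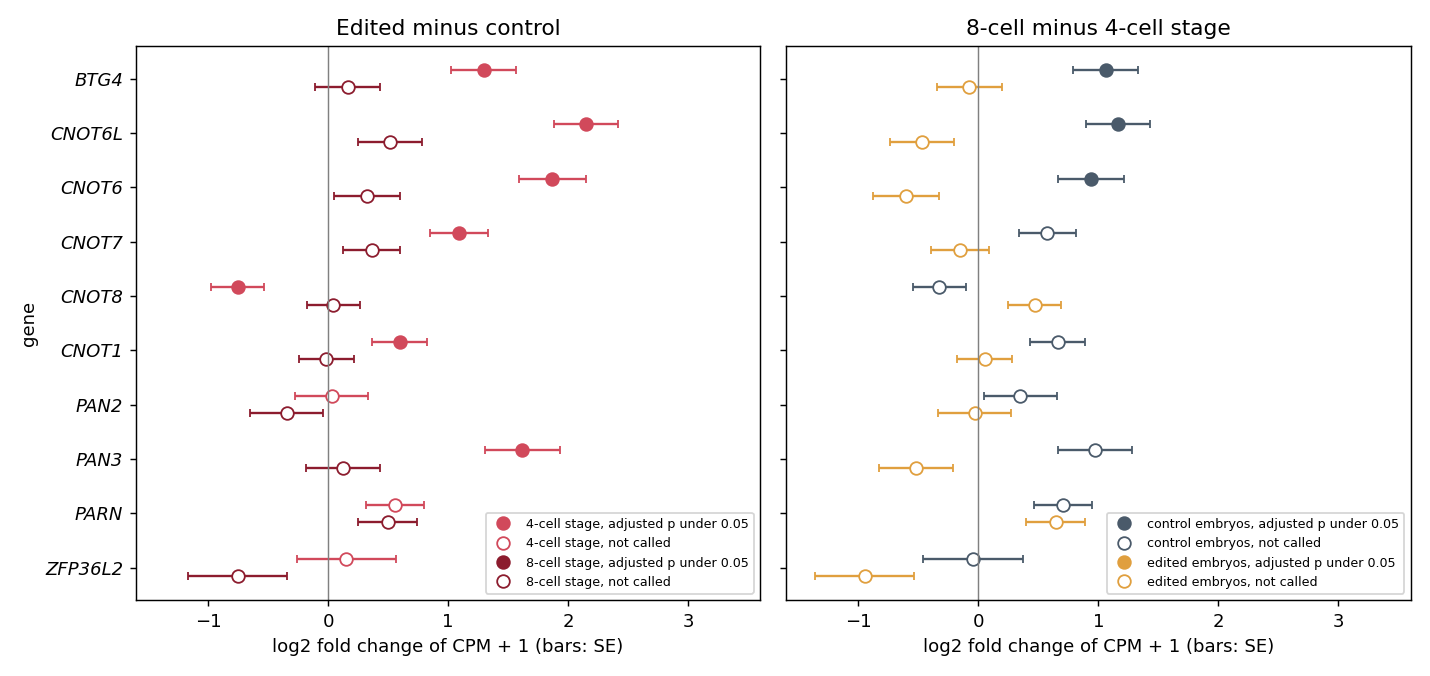
Log2 fold changes on the CPM + 1 scale (horizontal axes) with their SE for the 10 genes, edited minus control at each stage (left) and 8-cell minus 4-cell stage in control and in edited embryos (right), where filled points passed an adjusted p-value of 0.05. On the left 7 points of the 4-cell stage and none of the 8-cell stage are filled, and on the right only BTG4, CNOT6L and CNOT6 in control embryos.

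In 8-cell embryos the largest positive log2 differences between edited and control embryos were 0.51 for CNOT6L (SE 0.267, limma adjusted p-value 0.236) and 0.50 for PARN. Libraries of the groups did not overlap for 5 of the 10 genes: CNOT6L, CNOT6, CNOT7 and PARN were higher and PAN2 was lower in both edited libraries. Over all genes 27.7% were higher and 32.7% lower without overlap in that comparison. The 4 of 10 that were higher lie above their share and the 1 that was lower lies below its share. With 10 genes chosen by name this is a description and not a test. By limma 0 of the 10 had an unadjusted p-value under 0.05, and edgeR and DESeq2 also called 0. The scaling to oocyte markers called PAN2 (-0.85) and ZFP36L2 (-1.26) lower in edited embryos. That scaling called 3615 of all 12129 genes lower and 13 higher, with a median of -0.505 over all genes.

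The difference between edited and control embryos is called the effect here. Whether the effect changed between the stages was tested as the 8-cell effect minus the 4-cell effect. It was smaller at the 8-cell stage for CNOT6L, by -1.63 on the log2 scale (SE 0.377, limma adjusted p-value 0.0341), and for CNOT6, by -1.54 (SE 0.391, limma adjusted p-value 0.0406). Of all genes 3.96% were called, 2.00% in this direction and 1.95% in the other. PAN3 (-1.49, limma adjusted p-value 0.0656) and BTG4 (-1.13, 0.0973) had differences of similar direction that were not called. CNOT6L held under 8 and CNOT6 under 6 of 18 alternatives. edgeR's quasi-likelihood test called 0 of the 10 and DESeq2 4. Leaving out the first 4-cell control library ended both calls, as did leaving out the first 8-cell control library or any 1 of the 4 edited libraries. Without the second 8-cell control library CNOT6 was lost and BTG4 gained, and without the second 4-cell control library CNOT7 and PAN3 were gained.

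In control embryos, 3 of the 10 genes were called higher in 8-cell than in 4-cell libraries and none lower, where 9.02% of all genes were called, 2.75% higher and 6.27% lower. The libraries of the stages did not overlap for 8 genes that were higher and 1, CNOT8, that was lower at the 8-cell stage, beside 28.4% and 30.8% of all genes. The differences were 1.16 for CNOT6L (SE 0.267, limma adjusted p-value 0.0207), 1.06 for BTG4 and 0.94 for CNOT6 (SE 0.277, limma adjusted p-value 0.0452) on the log2 scale. PAN3 had a difference of 0.98 (SE 0.310) that was not called (limma adjusted p-value 0.0574). The 4-cell control libraries also serve in the 4-cell comparison with edited embryos, so the results of the 2 comparisons share them. The first of them was lower than the second for all 10 genes, and in proportion by least for CNOT8. Without the first 4-cell control library or without the first 8-cell control library 0 of the 10 were called, and without the second 4-cell control library 7 were. edgeR called 0 of the 10, with 6 at an unadjusted p-value under 0.05, and DESeq2 called 3. The cumulus and granulosa markers also had a lower sum in 8-cell than in 4-cell control libraries, and with them as a covariate 0 of the 10 were called. With the scaling to oocyte markers BTG4 (0.59, limma adjusted p-value 0.235), CNOT6L (0.70, 0.086) and CNOT6 (0.475, 0.228) were not called. CNOT8 was then called lower at the 8-cell stage (-0.79, limma adjusted p-value 0.0212). That scaling called 2952 of all 12129 genes lower and 42 higher, with a median of -0.46 over all genes.

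In edited embryos 0 of the 10 genes were called between the stages by limma, edgeR or DESeq2, where 5.18% of all genes were called, 1.45% higher and 3.73% lower at the 8-cell stage. Without overlap, 2 genes were higher and 5 lower in 8-cell libraries, beside 22.7% and 30.2% of all genes. By limma 4 of the 10 had an unadjusted p-value under 0.05. These were CNOT6, at -0.60 (SE 0.277), and ZFP36L2, at -0.95, on the lower side, and CNOT8, at 0.47 (SE 0.220), and PARN, at 0.65, on the higher side. The scaling to oocyte markers called 4 genes lower at the 8-cell stage: CNOT6L (-1.005), CNOT6 (-1.14), PAN3 (-1.05) and ZFP36L2 (-1.48). Under this scaling 3308 of all 12129 genes were called lower and 49 higher, with a median of -0.575 over all genes.

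Across the 8 libraries, which form the 4 groups above and are described here without a test, CNOT6L followed CNOT6 (Pearson r = 0.982), CNOT7 (0.977) and PAN3 (0.972) on the log2 scale, and BTG4 followed CNOT7 (0.931) and CNOT6L (0.920). CNOT8 ran against CNOT6 (-0.913) and PAN3 (-0.847). Among 7427 other genes averaging 10 CPM or more, the 3 with a pattern most like BTG4 were ARHGAP29 (r = 0.992), PANK3 (0.984) and TMEM60 (0.984). The 3 most like CNOT6L were CENPQ (0.998), PALS1 (0.996) and CEP95 (0.996). CENPQ, a centromere protein gene, was at 52.4 and 78.0 CPM in 4-cell control, 199 and 195 CPM in 4-cell edited, 129 and 108 CPM in 8-cell control, and 152 and 152 CPM in 8-cell edited libraries.

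The rest of the decay pathway was described by 8 lists holding 98 genes, of which 96 were in the table and 93 were tested. At the 4-cell stage 26 of the 93 were higher and 15 lower in edited embryos, and the median difference was 0.13 on the log2 scale. In 8-cell embryos none was higher and 10 were lower, with a median of 0.07. These are 27.96% and 16.1% in 4-cell and 10.8% in 8-cell embryos, to be set beside 18.9%, 25.8% and 14.5% over all genes. The same shares of all genes stand beside the counts of each list below.

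Among the other CCR4-NOT genes, 2 of 7 were higher and 1 lower in 4-cell edited embryos. CNOT4, a ubiquitin ligase that associates with the complex, was at 234 and 194 CPM in edited against 88.6 and 115 CPM in control libraries (log2 fold change 1.07). CNOT11, a subunit of the module at the N-terminal end of CNOT1, was at 118 and 68.8 against 36.2 and 57.9 CPM (0.96). CNOT9, a subunit that links CNOT1 to recruiting proteins, was lower at both stages, with 23.0 and 18.5 against 57.3 and 52.2 CPM at the 4-cell and 10.4 and 9.94 against 27.9 and 36.7 CPM in 8-cell embryos (log2 fold changes -1.36 and -1.56). Each of these 3 genes had edited and control libraries that did not overlap, and the limma adjusted p-values lay between 0.000929 and 0.0132.

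The list of other BTG and TOB proteins holds relatives of BTG4 that bind CCR4-NOT in somatic cells. Of 5, none was called higher, and 2 were called lower at each stage. BTG3 was at 12.4 and 38.7 CPM in edited against 110.0 and 109 CPM in control libraries at the 4-cell stage, and at 6.60 and 9.46 against 71.7 and 58.0 CPM in 8-cell embryos (log2 fold changes -2.26 and -2.88). BTG2 was lower at the 4-cell stage (-1.81) and BTG1 at the 8-cell stage (-1.78). The list's medians were -0.38 and -1.07. Cumulus and granulosa markers were lower in the same libraries, and their part in these changes was not tested.

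Of 19 tested RNA-binding proteins that recruit deadenylases or control tail length, 6 were higher in 4-cell edited embryos and 2 lower. NANOS1, a partner of the Pumilio proteins, was at 307 and 298 CPM in edited against 68.5 and 95.6 CPM in control libraries (1.89 on the log2 scale, SE 0.254, limma adjusted p-value 2.88e-05). CPEB4, a binder of cytoplasmic polyadenylation elements, was at 76.5 and 83.9 against 10.3 and 31.0 CPM (2.09). On the lower side were YTHDF2, an m6A reader that recruits CCR4-NOT, at 32.0 and 29.7 against 113 and 101 CPM (-1.76), and ZFP36, a relative of ZFP36L2, at 1.76 and 1.84 against 8.90 and 5.19 CPM (-1.48). YTHDF2 was the single gene of this list called at the 8-cell stage, at 27.4 and 28.4 against 56.3 and 55.0 CPM (-0.97). Of the 6 other deadenylases, ANGEL2 was called higher at the 4-cell stage, at 147 and 147 against 61.4 and 78.3 CPM (1.07), and none was called at the 8-cell stage.

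Of the 7 uridylation genes, TUT1 alone was called. TUT1, which adds uridines to U6 small nuclear RNA and also acts as a nuclear poly(A) polymerase, was at 71.9 and 54.5 CPM in edited against 253 and 312 CPM in control libraries at the 4-cell stage and at 75.7 and 74.8 against 132 and 166 CPM at the 8-cell stage. The log2 fold changes were -2.15 (SE 0.235, limma adjusted p-value 4.62e-06) and -0.97 (SE 0.235, limma adjusted p-value 0.00855). The enzymes that uridylate mRNA tails are named here beyond the rule, after their values were seen. TUT7 was at 149 and 174 CPM in 4-cell edited against 66.1 and 139 CPM in 4-cell control libraries (0.75, SE 0.300, limma adjusted p-value 0.0536). TUT4 was at 12.7 and 21.0 against 19.2 and 18.4 CPM, which overlap. DIS3L2, the nuclease that digests uridylated RNA, was at 8.24 and 6.05 against 3.91 and 3.14 CPM (0.84, SE 0.404, limma adjusted p-value 0.103).

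**Figure D4:**
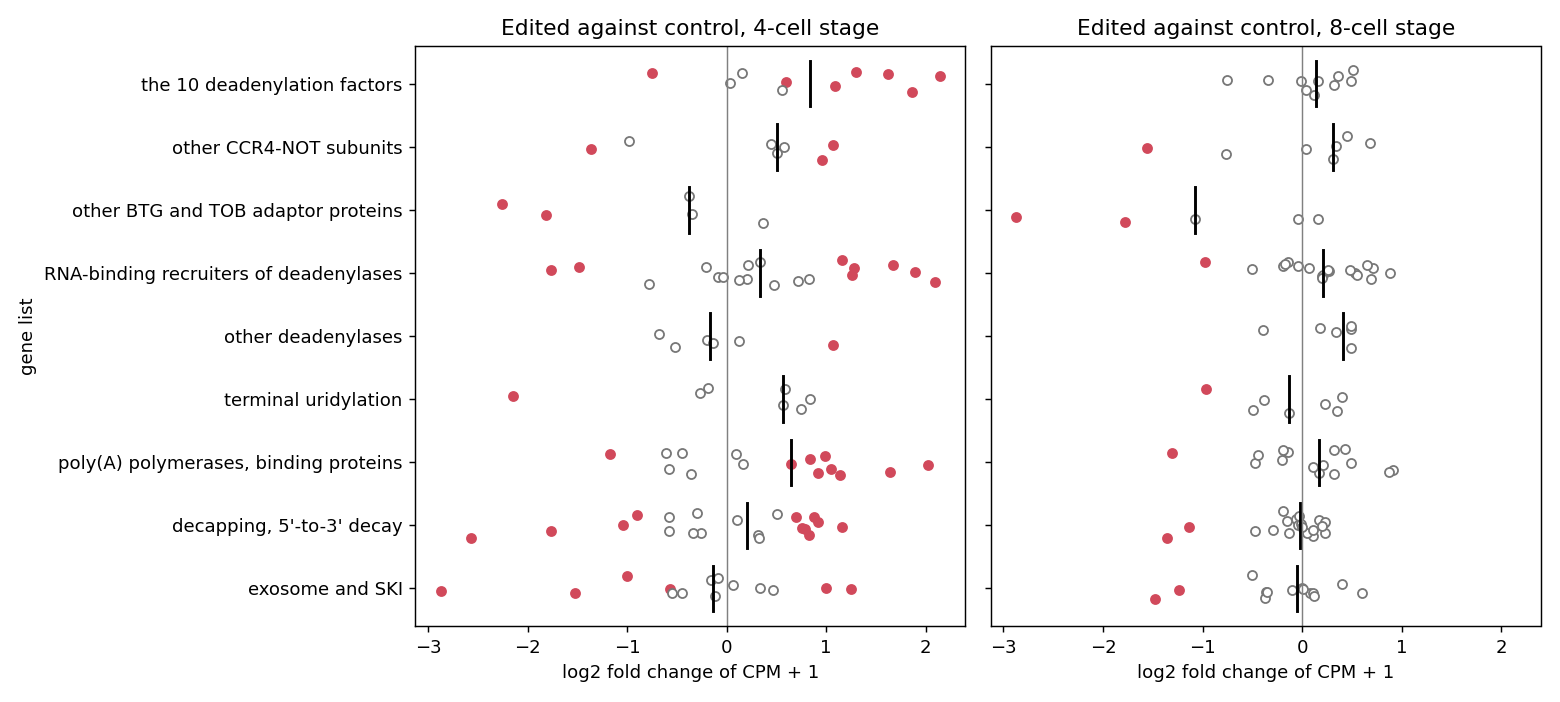
Log2 fold change on the CPM + 1 scale (horizontal axes) of edited against control embryos for the 10 deadenylation factors and 8 lists of other decay genes (rows), with one point per gene, filled where the adjusted p-value was under 0.05, and a line at the median. At the 4-cell stage filled points lie on both sides of 0 for most lists, and at the 8-cell stage every filled point lies below 0.

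Genes that add or bind poly(A) held 8 higher and 1 lower of 15 at the 4-cell stage, with a median of 0.65. Over all genes 18.9% were called higher and 25.8% lower in that comparison. At the 8-cell stage this list held 0 higher and 1 lower, with a median of 0.17. TENT4B, a non-canonical poly(A) polymerase, was at 29.4 and 24.7 CPM in edited against 4.11 and 8.27 CPM in control libraries (log2 fold change 2.02). PAIP1, a partner of the poly(A)-binding protein, was at 10131 and 15669 against 2768 and 5898 CPM (1.64). TENT5A was lower at both stages (-1.17 and -1.31). The decapping and decay list held 7 higher and 4 lower of 20, among them the exonuclease XRN1 at 114 and 173 against 49.3 and 78.5 CPM (1.16), EIF4ENIF1 (0.88), the scavenger decapping enzyme DCPS at 3.41 and 5.12 against 35.7 and 24.8 CPM (-2.57) and NUDT16 (-1.76). At the 8-cell stage LSM6 (-1.36) and LSM5 (-1.14) were lower. The exosome list held 2 higher and 4 lower of 14 at the 4-cell stage: EXOSC8 was at 389 and 352 against 177 and 136 CPM (1.25) and DIS3 at 62.0 and 86.0 against 28.9 and 44.9 CPM (0.999), while EXOSC4 was at 18.9 and 19.7 against 182 and 119.7 CPM (-2.87) and EXOSC6 fell too (-1.52). At the 8-cell stage EXOSC1 (-1.47) and EXOSC4 (-1.24) were lower. The log2 fold changes in this paragraph were called by limma with adjusted p-values between 3.14e-06 and 0.0325.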

How the data were processed

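Tail-captured mRNA from pools of 5 embryos was amplified with a SMART-Seq kit and tagmented, per the labels' protocols. Trim Galore 0.6.7, HISAT2 2.2.1 and featureCounts 2.0.1 are named, per the submitters' processing notes, with no role or order. The genome build and annotation are not given in the sources used here. The authors deposited CPM, although their table is named for raw counts: to within 0.05 reads, 100% of each column's values above 0 were whole multiples of 1 step, so whole reads were recovered. The column sums differ slightly from 1000000, and shares of reads use the recovered reads. The table's other 4 columns match no sample given here and were not used. By name each carries the stage and condition code of a different group. Whether they are further libraries of those groups is not stated.

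The main test was limma 3.58.1 in R 4.3.3 on log2(CPM + 1), using its mean-variance trend, genes averaging 1 CPM or more, 1 mean per group over all 8 libraries and Benjamini-Hochberg adjustment over 12129 genes. The pseudocount understates changes of weak genes. Alternatives were pseudocounts of 0.5 and 5 CPM, no filter, edgeR 4.0.16 and DESeq2 1.42.0 on recovered reads, TMM scaling, only the groups compared, a replicate block, a covariate of 26 cumulus and granulosa markers and the omission of each library. A crossed block and the scaling to 18 oocyte markers were added after seeing the data. limma was also run on simulated counts to check the code, which does not bear on the calls in these libraries. The 10 genes, the lists and the tests were chosen with earlier results of these data known. Named are the 10 genes, RPL12, up to 2 called genes per list, direction and stage by smallest p-value, and the 3 genes most like BTG4 and CNOT6L. Symbols of all 10 matched RefSeq. No sequence or transcript length was used.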

Additional observations from a re-analysis of the deposited data

Results flagged for a closer look

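For CNOT6L and CNOT6 the difference between edited and control embryos changed between the stages by limma's test of that change itself. The 8-cell effect minus the 4-cell effect was -1.63 on the log2 scale for CNOT6L (SE 0.377, limma adjusted p-value 0.0341) and -1.54 for CNOT6 (SE 0.391, limma adjusted p-value 0.0406). The call held under 8 of 18 alternatives for CNOT6L and under 6 for CNOT6. edgeR called neither gene, and leaving out any 1 of 6 of the 8 libraries (all except the second 4-cell control and the second 8-cell control library) ended both calls. The oocyte scaling (limma adjusted p-value 0.0523 for each) and the cumulus and granulosa covariate (0.0911 for CNOT6L and 0.115 for CNOT6) also ended both. For both genes the 4 edited libraries were above all controls of their stage. The level in 4-cell control libraries was 0.466 and 0.512 of that in 8-cell control libraries, and the level in 4-cell edited libraries 1.39 and 1.53 times that in 8-cell edited libraries.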

How the results depend on the processing

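Of the results of the 10 genes under 19 alternatives, 812 kept their direction and their side of the threshold, 71 lost and 23 gained a call, and 34 changed sign. With 2 libraries a group, 1 library can decide a call. The cause of the changes below was not tested.

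At the 4-cell stage limma called 7 of the 10 genes and 5419 of all genes. The marker covariate called 0 and 1 (872 genes had an unadjusted p-value under 0.05), and the oocyte scaling 4 of the 10. Omission of 1 library gave 6 to 8 and 3741 to 5388. At the 8-cell stage the counts were 0 and 1895; the covariate called 2 genes in all, and the oocyte scaling 2 of the 10 and 3628 genes. Omission of 1 library gave 0 of the 10 and 1021 (without the second 8-cell control library) to 2063 genes. For the difference between stages 2 and 480 were called. No filter gave 0 and 0 (2993 at an unadjusted p-value under 0.05), edgeR 0 and 18, DESeq2 4 and 1065, the covariate 0 and 41, and the oocyte scaling 0 and 142. Omission of 1 library gave 0 to 4 and 0 (without either 4-cell edited library) to 1396 genes. Between stages in control embryos 3 and 1094 were called. No filter gave 0 and 1, edgeR 0 and 86, only the control libraries 0 and 161, and the covariate 0 and 13. The oocyte scaling gave 1 and 2994, where the 1 was CNOT8 on the lower side. Omission of 1 library gave 0 to 7 and 13 to 2114. In edited embryos 0 and 628 were called. No filter gave 17 genes, edgeR 324, DESeq2 1286, only the edited libraries 1 of the 10 and 1149, the covariate 189, and the oocyte scaling 4 and 3357. Omission of 1 library gave 0 to 1 and 7 to 966.

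Sample titles number the libraries of each group 1 and 2 without saying what a number stands for. The column names of all libraries numbered 2 end in the same letter, whose meaning is not given in the sources used here. Same-numbered libraries correlated in their deviations at 0.11 between the 4-cell groups and -0.09 between the 8-cell groups. The values were -0.30 between the controls and 0.02 between the edited groups, so the numbers were not taken as pairs. The replicate block called 1 of the 10 for the difference between stages, 6 at the 4-cell stage and 2 between stages in controls. A crossed block, with the 8-cell control numbers exchanged, called 864 genes for the difference between stages and 1690 between stages in controls, and 3 and 4 of the 10.

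The sign changes concerned values that were not called. With the oocyte scaling the 4-cell values became -0.41 for PAN2 and -0.29 for ZFP36L2. The 8-cell values became -0.34 for BTG4, -0.19 for CNOT6, -0.15 for CNOT7, -0.47 for CNOT8, -0.39 for PAN3 and -0.014 for PARN. The stage differences became -0.12 for PAN2 in controls and -0.067 for CNOT8 and -0.48 for CNOT1 in edited embryos. With the covariate they were -0.30 for PAN2 at the 4-cell stage, and -0.25 for BTG4, -0.003 for CNOT7, -0.16 for CNOT8 and 0.38 for ZFP36L2 at the 8-cell stage. For the difference between stages PARN was then 0.042, and ZFP36L2 was 0.52 between stages in controls. CNOT1 at the 8-cell stage was 0.031 with edgeR and with DESeq2 and 0.032 with TMM scaling. Omission of 1 library gave -0.22 to 0.28 for PAN2 at the 4-cell stage, and -0.085 to 0.41 for BTG4, -0.067 to 0.16 for CNOT8, -0.048 to 0.023 for CNOT1 and -0.06 to 0.31 for PAN3 at the 8-cell stage. It gave -0.44 to 0.32 for the PARN difference between stages, -0.32 to 0.23 for ZFP36L2 between stages in controls, and -0.26 to 0.12 for BTG4, -0.086 to 0.19 for CNOT1 and -0.066 to 0.011 for PAN2 between stages in edited embryos.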

Other observations

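Other decay genes of the lists differed between the stages within a condition, and are named here after their values were seen. In control embryos 4 of the 93 tested were lower in 8-cell than in 4-cell libraries: YTHDF2, at 56.3 and 55.0 against 113 and 101 CPM (log2 difference -0.93), TUT1, at 132 and 166 against 253 and 312 CPM (-0.92), DCPS (-1.28) and EXOSC4 (-1.39). EXOSC8, an exosome ring subunit, was higher (0.88). In edited embryos BTG1 (-1.58), LSM5 (-1.92) and LSM6 (-1.21), the last 2 being proteins of the ring that promotes decapping, and EXOSC9 (-0.81) were lower at the 8-cell stage, and EXOSC7 was higher (0.93). The limma adjusted p-values of these 10 values lay between 0.00757 and 0.0414. The share of all genes called was 9.02% in control and 5.18% in edited embryos. For 3 genes of the lists limma called a change between stages in the difference of edited from control embryos. These were NANOS1 (8-cell minus 4-cell effect -1.33, limma adjusted p-value 0.0488), DCPS (2.09, 0.0382) and EXOSC4 (1.64, 0.0432). They make 2.15% of the 93 higher and 1.08% lower, beside 1.95% and 2.00% of all genes. Over all genes limma called 480 in this comparison and edgeR 18. PABPN1L, which brings BTG4 to poly(A) tails in mouse oocytes, was at 81.4 and 56.7 CPM in 4-cell control, 83.7 and 41.2 CPM in 4-cell edited, 58.7 and 81.3 CPM in 8-cell control, and 145 and 113 CPM in 8-cell edited libraries. Its 8-cell edited libraries lay above all others, without a call against 4-cell edited (log2 difference 1.11, limma adjusted p-value 0.0525) or 8-cell control libraries (0.88, 0.0736).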
